A study of Mus musculus with 16 samples.

Results

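Complement is a set of plasma and cell surface proteins that tags microbes, dying cells and immune complexes for removal. The C1 complex (classical pathway) or sugar-binding proteins (lectin pathway) cleave C4 and C2, whose fragments form an enzyme that splits C3. In the alternative pathway factor B takes the place of C2. The small fragments C3a and C5a act on receptors of myeloid and other cells, and host cells carry regulators that take the C3-splitting enzymes apart. Most plasma complement is made in the liver, and macrophages, fibroblasts and keratinocytes are known local sources in skin.

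Expression of 8 complement genes was followed in the dorsal skin of iK5-TERT mice. These were C2, C3, C4b and Cfb (initiators and convertase subunits), Serping1 and Cd55 (regulators), and C3ar1 and C5ar1 (receptors of C3a and C5a). The members were all probe sets whose listed gene symbol was 1 of these 8. Of the 8 genes, 6 had a probe set of their own, with 13 probe sets in all among the 45101 on the array. C4b was represented only by a probe set listed to both C4a and C4b, and its values are given as C4a/C4b. C3 was not analysed here. A probe set listed to both Cd55 and Cd55b was dim on all arrays (6.86 to 27.3) and did not pass the filter on low values, whereas the other 14 of 15 probe sets did. Where a gene had several probe sets, the brightest on average stood for it.

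The iK5-TERT (K5tTA-tetop-TERT) mice carry a tetracycline-regulated Tert transgene, driven by a transactivator under the keratin 5 promoter, in basal epidermis and the outer root sheath of hair follicles. All mice drank doxycycline (5 µg/ml), which silences the transgene, until postnatal day 10 to 21. At day 60 they are labelled as being in TERT-induced anagen, the growth phase of the hair follicle. The 2 mice of the TERT-off cohort were injected with doxycycline (8 µg/g), and the 2 mice of the TERT-on cohort received vehicle. Each mouse gave serial 3 cm2 biopsies, freed of subcutaneous fat, at 0, 6, 12 and 24 h, so that 16 Affymetrix arrays covered 8 groups of 2. Baseline biopsies preceded the injection according to the methods, although the labels mark those of the TERT-off cohort as injected. The genetic background of the iK5-TERT mice profiled is not stated in the sources used here, and the cohorts contained no mouse without the transgene. Doxycycline and loss of TERT cannot be told apart in this design, because every TERT-off mouse received the drug and no TERT-on mouse did.

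The values were intensities on a linear scale, normalized by the authors, with array medians of 32.9 to 36.3. Tert intensity was 185 and 200 in the TERT-off cohort at 0 h, against 357 and 216 in the TERT-on cohort, and from 6 to 24 h it was 8.32 to 16.1 in TERT-off skin and 22.6 to 64.6 in TERT-on skin. Both cohorts were thus lower in Tert after 0 h. One 0 h array, that of TERT-on replicate 1, had a 5′ to 3′ ratio of Gapdh signal of 0.0599, a sign of degraded or truncated RNA, compared with 0.977 to 1.12 on the other 15 arrays. Markers of basal keratinocytes were present on every array, and Krt5 intensity was 2435 to 5113. Of 8 hepatocyte markers 2 passed the filter on low values (Alb and Ttr). Both were higher in TERT-off skin over 6 to 24 h (limma). Their summed intensities were 90.1 to 227 in TERT-off skin, against 47.2 to 65.4 in TERT-on skin. Ttr passed the filter through the TERT-off arrays alone, with 0 of 8 TERT-on arrays above it. Its entry into the test thus favoured a difference in this direction. The brightest probe sets of 5 other hepatocyte markers were at 1.00 to 32.9, and the eighth had none in the annotation used.

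TERT-off replicate 1 went against the anagen label. Its 10 hair shaft keratin genes summed to 349 at 0 h, before the injection, against 27324 in TERT-off replicate 2 and 14709 and 7638 in the TERT-on mice. At 6, 12 and 24 h the sum was 342, 269 and 252 in TERT-off replicate 1 and 22579, 1229 and 677 in TERT-off replicate 2. In TERT-on replicate 1 it was 22907, 12078 and 6350, and in TERT-on replicate 2 it was 26397, 28225 and 29420. One TERT-off mouse thus had low hair keratins throughout, and the other had high ones up to 6 h. Counts without TERT-off replicate 1 accompany the comparison of the mice.

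The principal comparison set the TERT-off cohort against the TERT-on cohort over 6, 12 and 24 h. Of the 6 genes with their own probe set, 5 were higher in TERT-off skin and 0 lower (limma, adjusted p under 0.05 after Benjamini-Hochberg adjustment over 25563 probe sets, with the mouse as a random block). The 5 genes were C2, Cfb, Serping1, Cd55 and C3ar1. Among all 12580 genes tested, 16.9% were higher and 12.6% lower. The median difference of the 6 genes was 0.84 on the log2 scale, beside 0.04 over all genes. C4a/C4b was higher as well, and C5ar1 had an adjusted p of 0.0552 (limma). Both receptors passed the filter on low values through the TERT-off arrays alone, since 1 of 8 TERT-on arrays was above it for C3ar1 and 0 of 8 for C5ar1, so that their entry into the test favoured a difference in this direction. The 4 genes that passed the filter in both cohorts (C2, Cfb, Serping1 and Cd55) were all higher. In whole skin, more cells of a type and more RNA per cell cannot be told apart.

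Serping1 encodes C1 inhibitor, the plasma serpin that inactivates the proteases of the C1 complex, and lies on chromosome 2 (84765360 to 84775444, GRCm38.p6). It was the brightest of the genes examined. Serping1 intensity at 0, 6, 12 and 24 h was 1228, 2774, 2504 and 2151 in TERT-off replicate 1, and 1083, 1390, 2782 and 2270 in TERT-off replicate 2. In TERT-on replicate 1 it was 1034, 1007, 1488 and 1347, and in TERT-on replicate 2 it was 1082, 1099, 954 and 1014. The 4 mice were close together at 0 h, and 5 of the 6 later TERT-off arrays lay above every later TERT-on array. The exception was TERT-off replicate 2 at 6 h, whose level was reached by TERT-on replicate 1 at 12 h. Mean intensity over 6 to 24 h was 2312 ± 519 in TERT-off skin and 1151 ± 216 in TERT-on skin (SD over 6 arrays of 2 mice each), a 1.99-fold difference (log2 0.99, SE 0.17, limma adjusted p = 0.00448).

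C2 is the classical and lectin pathway serine protease that pairs with C4b in the C3 convertase. It lies on chromosome 17 (34862602 to 34882100), 87 bases from Cfb. C2 intensity at 0, 6, 12 and 24 h was 118, 185, 155 and 127 in TERT-off replicate 1, and 87.3, 105, 194 and 159 in TERT-off replicate 2. It was 76.6, 83.9, 102 and 103 in TERT-on replicate 1, and 83.3, 79.4, 78.3 and 85.2 in TERT-on replicate 2. All 6 later TERT-off arrays exceeded all 6 later TERT-on arrays, a separation seen for 6.56% of genes with a value on all of these arrays. The lowest TERT-off array was replicate 2 at 6 h, at 105, close to the highest TERT-on array at 103. C2 was 1.71-fold higher in TERT-off skin (log2 0.78, SE 0.17, limma adjusted p = 0.00893). The other probe sets of C2 gave log2 differences of 0.87 and 0.79, with adjusted p of 0.0159 and 0.0161 (limma).

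The probe set listed to C4a and C4b reads transcripts of near-identical genes, of which C4b encodes the complement component cleaved by the C1 complex and C4a a close copy. C4b lies on chromosome 17 (34728139 to 34743902), 112471 bases from Cfb. C4a/C4b intensity at 0, 6, 12 and 24 h was 489, 1442, 1270 and 1234 in TERT-off replicate 1, and 503, 585, 1603 and 1061 in TERT-off replicate 2. It was 382, 568, 748 and 685 in TERT-on replicate 1, and 521, 517, 450 and 478 in TERT-on replicate 2. The pattern was that of Serping1, with TERT-off replicate 2 at 6 h as the single later TERT-off array within the TERT-on range. C4a/C4b was 2.03-fold higher in TERT-off skin (log2 1.02, SE 0.23, limma adjusted p = 0.00987).

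Cfb encodes factor B, the alternative pathway counterpart of C2, on chromosome 17 (34856374 to 34862514). Its intensity at 0, 6, 12 and 24 h was 129, 266, 204 and 254 in TERT-off replicate 1, and 88.4, 109, 212 and 259 in TERT-off replicate 2. It was 84.2, 114, 200 and 131 in TERT-on replicate 1, and 95.4, 95.1, 104 and 113 in TERT-on replicate 2. The mice of the TERT-on cohort parted at 12 h, where replicate 1 came close to the TERT-off arrays, and TERT-off replicate 2 at 6 h lay within the TERT-on range. Cfb was 1.71-fold higher in TERT-off skin (log2 0.77, SE 0.23, limma adjusted p = 0.0304). Over the alternative settings the adjusted p of Cfb ran from 0.00231 to 0.32 (limma), and it exceeded the threshold without the 6 h arrays (0.0631), without a filter on low values (0.0713), and with 1 mean per mouse (0.0573).

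Cd55 encodes decay-accelerating factor, a membrane-anchored regulator that speeds the breakdown of C3 convertases, on chromosome 1 (130429798 to 130465009). Cd55 intensity at 0, 6, 12 and 24 h was 193, 248, 164 and 175 in TERT-off replicate 1, and 139, 138, 218 and 165 in TERT-off replicate 2. It was 95.3, 89.5, 112 and 92.3 in TERT-on replicate 1, and 148, 120, 95.3 and 74.9 in TERT-on replicate 2. As with C2, the probe set that stands for Cd55 separated the cohorts on all 12 later arrays. Its mean intensity in TERT-off skin was 166 at 0 h and 170 at 24 h, and in TERT-on skin the mean was lowest at 24 h (83.6). Cd55 was 1.88-fold higher in TERT-off skin over 6 to 24 h (log2 0.91, SE 0.19, limma adjusted p = 0.00806). Its other probe sets differed by 0.86 and 0.66 on the log2 scale, with adjusted p of 0.0114 and 0.0329 (limma). The cohorts were separated on the first of these (lowest later TERT-off array 122, highest later TERT-on array 114). On the second they overlapped (80.6 and 92.9).

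C3ar1 encodes the G protein-coupled receptor of C3a and showed the largest difference of the 7 probe sets (chromosome 6, 122847140 to 122856157). Its promoter is shown because it is the gene with the largest difference and the window directly adjoins the annotated gene; these are the 250 bases upstream of the start site from RefSeq (GRCm38.p6, chr6:122856158-122856407, minus strand). Capitals mark matches to the motifs searched.
C3ar1: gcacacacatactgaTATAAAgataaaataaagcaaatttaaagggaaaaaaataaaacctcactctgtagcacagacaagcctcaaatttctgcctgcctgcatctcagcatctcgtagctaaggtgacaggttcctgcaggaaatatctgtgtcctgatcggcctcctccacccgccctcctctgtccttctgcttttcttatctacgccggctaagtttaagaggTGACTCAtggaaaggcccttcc
The motifs, searched on both strands, were the interferon-gamma activated site TTCNNNGAA (present in 7.02% of the 32851 mouse promoter windows of this length), the interferon response core of GAAA, any 2 bases and GAAA (2.98%), the NF-kB motif of GGGA, any 3 bases and TCC (3.86%), the C/EBP motif TTGCNNNAA (8.29%), the AP-1 motif TGACTCA (4.46%) and TATAAA (12.4%). The C3ar1 window held TGACTCA, 16 bases before the start site, and TATAAA, 230 bases before it. The windows of C5ar1 and Cd55, which lie partly or wholly inside the annotated spans of these genes, held 0 matches. A match describes the letters only, and binding was not measured.

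C3ar1 intensity at 0, 6, 12 and 24 h was 47.9, 115, 92.5 and 81.1 in TERT-off replicate 1, and 26.4, 46.4, 88.1 and 77.8 in TERT-off replicate 2. It was 18.8, 31.3, 61.7 and 30.4 in TERT-on replicate 1, and 19.7, 25.8, 26.6 and 25.5 in TERT-on replicate 2. The TERT-off mice were above the TERT-on mice at each time, 0 h included, but TERT-on replicate 1 at 12 h exceeded that of TERT-off replicate 2 at 6 h. C3ar1 was 2.54-fold higher in TERT-off skin over 6 to 24 h (log2 1.34, SE 0.27, limma adjusted p = 0.00688), and its other probe sets differed by 1.44 and 1.31. With no filter on low values its adjusted p was 0.0227 (limma). Without the TERT-on array of replicate 1 at 12 h, the difference was 1.54 (limma adjusted p = 0.00528).

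C5ar1 encodes the receptor of C5a, a strong attractant of neutrophils and macrophages (chromosome 7, 16246743 to 16259540). C5ar1 intensity at 0, 6, 12 and 24 h was 42.3, 61.9, 54.1 and 51.5 in TERT-off replicate 1, and 20.2, 25.3, 48.7 and 65.6 in TERT-off replicate 2. It was 15.3, 30.3, 33.6 and 31.7 in TERT-on replicate 1, and 24.4, 28.9, 23.1 and 26.7 in TERT-on replicate 2. The array of TERT-off replicate 2 at 6 h lay inside the TERT-on range and the other 5 later TERT-off arrays lay above it. The difference was 0.77 on the log2 scale (SE 0.27) and missed the threshold (limma adjusted p = 0.0552). A second, dimmer probe set of C5ar1 differed by 1.32 (limma adjusted p = 0.0186), and it too had 0 of 8 TERT-on arrays above the filter. With no filter the adjusted p of the brighter probe set was 0.107 (limma). Without the array of TERT-off replicate 2 at 6 h, the brighter probe set passed as well (log2 0.98, limma adjusted p = 0.00857), so that the call for C5ar1 turned on the probe set and on 1 array.

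**Figure D1:**
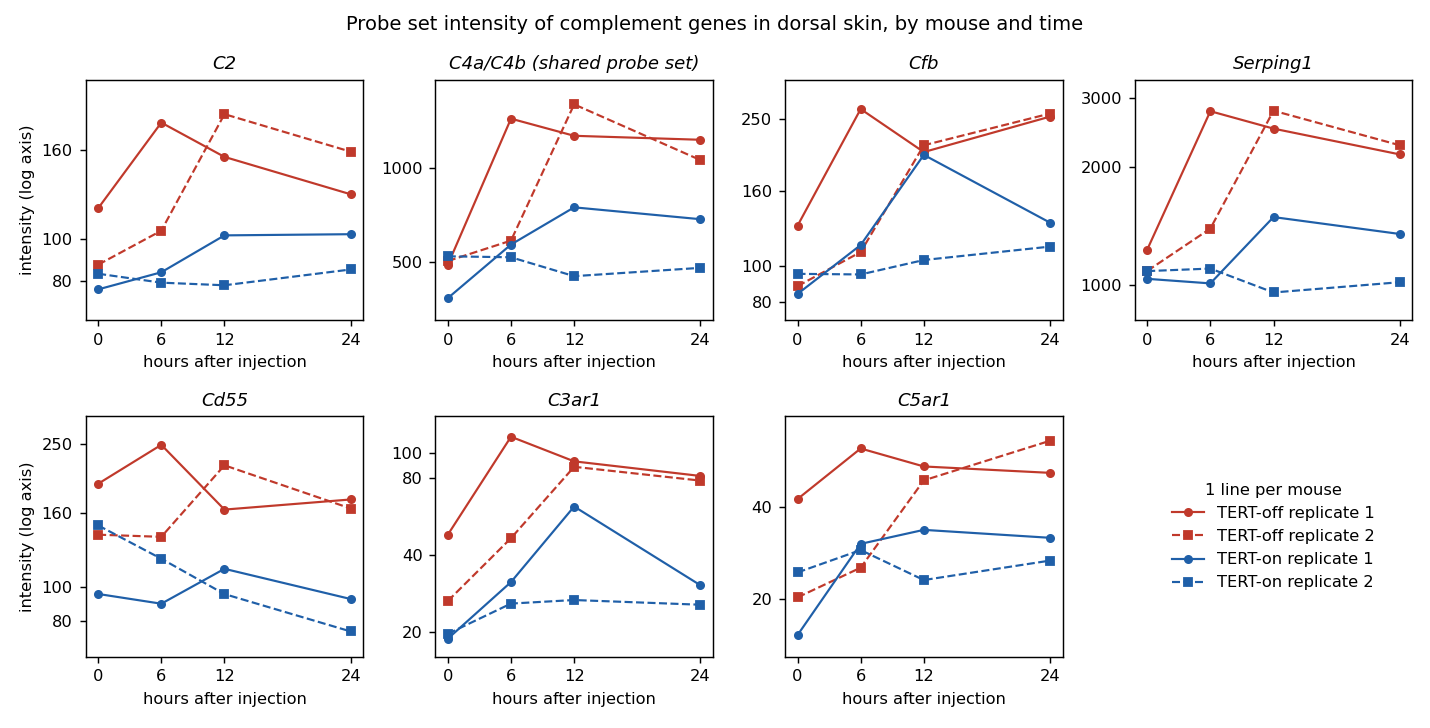
Intensity (log axis) of the probe set that stands for each gene against hours after injection (0 is before injection), with 1 line per mouse and 1 point per array. TERT-off replicate 1 is high by 6 h, TERT-off replicate 2 rises between 6 and 12 h for all genes plotted, and at 12 and 24 h TERT-on replicate 2 is the lowest of the 4 mice for all genes plotted.

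With the mouse as the unit, the mean log2 intensity over 6 to 24 h was higher in both TERT-off mice than in both TERT-on mice for all 7 probe sets. An exact permutation test of 2 mice against 2 cannot go below p = 0.333 (two-sided), which is the value that each of the 7 reached. The calls over 6 to 24 h therefore rested on the error estimate of limma, which is moderated across probe sets. With 1 mean per mouse in limma, C2, Serping1, Cd55 and C3ar1 passed and Cfb did not. The share of all genes called in that fit is not given here. It depended on the TERT-on mice, since 2 of the 6 genes (Serping1 and C3ar1) passed without TERT-on replicate 1 and 0 passed without TERT-on replicate 2. Fits that leave a mouse out hold 1 mouse in its cohort, and the share of all genes called in them is not given here. Counts from such fits are therefore not read as particular to the complement genes. The log2 differences without TERT-on replicate 2 were smaller for all 5 called genes, at 0.53 for Cfb, 0.65 for C2, 0.84 for Serping1, 0.89 for Cd55 and 1.05 for C3ar1. Without TERT-off replicate 1, the mouse with low hair keratins at 0 h, 4 of the 6 genes passed, with differences of 0.86 for Serping1, 0.75 for C2, 0.83 for Cd55 and 1.10 for C3ar1. Cfb (0.57, limma adjusted p = 0.0834) and C5ar1 (0.59, 0.0856) did not. In the other comparisons 0 passed without this mouse, as with it.

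At 0 h, before the injection, 0 of the 6 genes passed the test (limma), and 0 had an unadjusted p under 0.05. Of all genes 0.0318% were called higher, and 7.94% had an unadjusted p under 0.05 in either direction. On the probe sets that stand for the genes, all 6 differences were nonetheless positive, with a median of 0.41 beside −0.02 over all genes. They were widest for C3ar1 (0.89, SE 0.44), C5ar1 (0.60, SE 0.44) and Cd55 (0.47, SE 0.31), and narrowest for Serping1 (0.12, SE 0.28). The other probe sets were divided. They gave 0.83 and 0.73 for C3ar1, 0.48 and −0.062 for Cd55, −0.079 and −0.0098 for C2 and −0.15 for C5ar1. The single 0 h array of TERT-on replicate 1, with its low Gapdh ratio, was the lowest of the 4 arrays at this time for every gene plotted. Without it the differences were smaller for all 6 genes, at 0.79 for C3ar1, 0.26 for C2, 0.23 for C5ar1, 0.15 for Cd55, 0.11 for Cfb and 0.06 for Serping1, and that of C4a/C4b was −0.12 in place of 0.15.

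At single times after the injection, none of the 6 genes passed (limma), although several had an unadjusted p under 0.05. At 6 h these were 4 genes, beside 23.5% of all genes, and the median difference was 0.80. Genes called higher at this time made up 1.14% of the total. At 12 h there were again 4 genes with an unadjusted p under 0.05, beside 30% of all genes, the median was 0.92, and 1.9% of all genes were called higher. Serping1 came closest at 12 h (log2 1.15, SE 0.28, limma adjusted p = 0.0532). At 24 h all 6 had an unadjusted p under 0.05, beside 22.7% of all genes, with a median of 1.02 and 1.83% of all genes called higher. The cohort difference at 24 h minus that at 6 h had a median of 0.17, and 0 genes passed (0 with an unadjusted p under 0.05, limma), while 0.199% of all genes were called higher and 10.4% had an unadjusted p under 0.05.

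The 6 h comparison turned on TERT-off replicate 2. Without its 6 h array, 1 TERT-off array remained at that time. The differences were then 2.00 for C3ar1, 1.40 for Serping1, 1.34 for Cfb, 1.26 for Cd55 and 1.19 for C2. With that array they were 1.36, 0.90, 0.71, 0.84 and 0.77 in the same order. The TERT-off mice thus reached their high levels at different times, and the array of TERT-off replicate 2 at 6 h was also the later TERT-off array with high hair shaft keratins (22579). Relative to 0 h, the log2 change of Serping1 at 6 h was 1.18 for TERT-off replicate 1 and 0.36 for replicate 2 of that cohort, whereas at 12 h the changes were 1.03 and 1.36. For C4a/C4b the changes at 6 h were 1.56 and 0.22, and those at 12 h were 1.38 and 1.67. Cfb changed by 1.05 and 0.31 at 6 h and by 0.66 and 1.26 at 12 h in the same mice.

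Within each cohort the mean of the later times was then set against 0 h. In TERT-off skin 0 of the 6 genes passed and 4 had an unadjusted p under 0.05 (limma), with a median of 0.86. Of all genes 0.366% were called higher and 17.8% had an unadjusted p under 0.05. The changes were 1.18 for C3ar1 (SE 0.34), 0.97 for Cfb (SE 0.29), 0.97 for Serping1 (SE 0.22), 0.74 for C5ar1 (SE 0.34), 0.57 for C2 (SE 0.21) and 0.14 for Cd55 (SE 0.24). In TERT-on skin 0 passed and 0 had an unadjusted p under 0.05 (limma), and the median was 0.29. Of all genes 0.0397% were called higher and 19.7% had an unadjusted p under 0.05. Here C3ar1 changed by 0.72 (SE 0.34), C5ar1 by 0.58 (SE 0.34), Cfb by 0.45 (SE 0.29), C2 by 0.14 (SE 0.21), Serping1 by 0.10 (SE 0.22) and Cd55 by −0.31 (SE 0.24). The TERT-on mean at 0 h includes the array of replicate 1 with the low Gapdh ratio. Its low values raise the changes in TERT-on skin and lower the difference of changes.

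The test of the difference between these changes is the one that allows for the cohorts' distance at 0 h. All 6 estimates were positive, with a median of 0.45 beside 0.05 over all genes, but 0 passed (limma), and 0.00795% of all genes were called higher. On the probe sets that stand for the genes, Serping1 had an unadjusted p under 0.05, beside 14.4% of all genes, with an estimate of 0.86 (SE 0.31, unadjusted p = 0.0167 and adjusted p = 0.327 in limma). For the receptors the estimates were 0.46 for C3ar1 (SE 0.48) and 0.17 for C5ar1 (SE 0.49), which did not exceed their errors. The dimmer probe set of C5ar1 gave 1.47 (SE 0.63, unadjusted p = 0.0373 in limma), and those of C2 that do not stand for it gave 0.95 and 0.80 (unadjusted p = 0.0343 and 0.0473), with adjusted p of 0.346 to 0.372 for the 3.

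**Figure D2:**
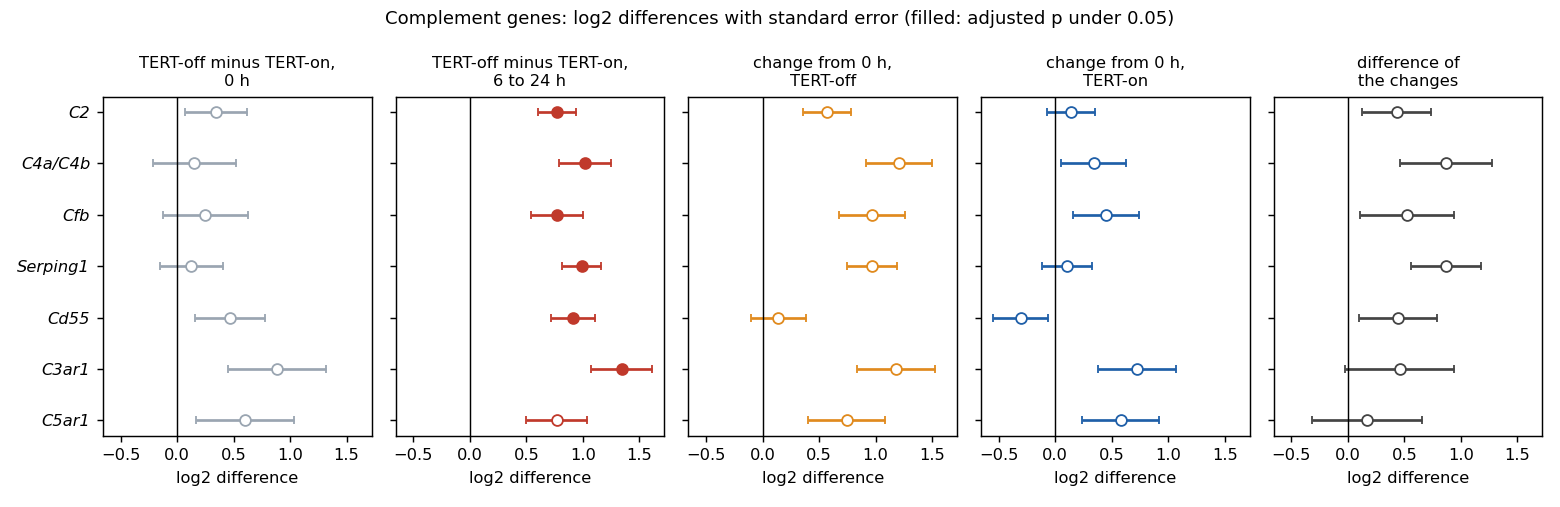
Log2 differences with their standard errors (bars) for each gene in 5 comparisons, from left to right TERT-off minus TERT-on at 0 h and over 6 to 24 h, the change from 0 h in TERT-off skin and in TERT-on skin, and the difference of those changes. Filled points, which have an adjusted p under 0.05, appear only in the panel for 6 to 24 h, where C5ar1 is the open point.

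The genes varied together over the 16 arrays, which share mice and cohorts, so the correlations are given as a description. Pearson r of log2 intensity ran from 0.619 for Cfb with Cd55 to 0.973 for Serping1 with C4a/C4b. The neighbours C2 and Cfb had an r of 0.876, below the 0.964 of C2 with Serping1 on another chromosome. The r of Cd55 with each of the others was 0.807 or lower.

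Of the 12304 genes tested that had a value on all 16 arrays, those most like each complement gene were taken as the 3 highest correlations. For Serping1 they were C1ra (r = 0.974), a protease of the C1 complex that C1 inhibitor inactivates, Fcgrt (0.973), the heavy chain of the neonatal Fc receptor, and P2rx4 (0.969), an ATP-gated channel. C2 was most like Epsti1 (0.965), Serping1 (0.964) and Alox5ap (0.963), the last of which is needed for leukotriene synthesis. Cfb followed Tmem176a (0.962), the lysosomal protease gene Lgmn (0.957) and Cyba (0.946), a subunit of the phagocyte oxidase.

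Of the receptors, C3ar1 was most like Emb (0.972), Cd300a (0.967), an inhibitory receptor of myeloid cells, and Nucb2 (0.965). C5ar1 was most like Slfn2 (0.947), the chemokine gene Pf4 (0.944) and Ppp1r18 (0.942). Cd55 was most like the matrix genes Cilp (0.951) and Efemp1 (0.948) and the expressed sequence AI467606 (0.946).

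The remaining complement genes were taken from lists covering the rest of the cascade. Of 43 such genes 20 were tested, and over 6 to 24 h 14 were higher and 2 lower in TERT-off skin (limma), with a median of 1.05 on the log2 scale. C6, Vtn and Vsig4 passed the filter through the TERT-off arrays alone, and of the other 17 genes 12 were higher and 2 lower. At 0 h 0 of the 20 passed, with a median difference of 0.30. For the difference of changes from 0 h 0 of the 20 passed as well, with a median of 0.46. At 12 h 5 were higher and 1 lower, and at 24 h 5 were higher.

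All 8 genes tested from the C1 and lectin recognition list were higher in TERT-off skin (median 1.28, beside 0.82 at 0 h with 0 called). They included the 3 chains of C1q, the antibody-binding unit of the C1 complex, namely C1qb (log2 1.53, limma adjusted p = 0.00597), C1qc (1.32, 0.0103) and C1qa (1.30, 0.0336). The lectin pathway gene Fcna, which encodes ficolin A, showed the largest difference of all complement genes tested (2.63, limma adjusted p = 0.000512), and it passed at 6, 12 and 24 h as well. Fcna also passed for the change from 0 h in TERT-off skin (1.83, limma adjusted p = 0.0389). In the alternative pathway Cfp, which encodes the convertase-stabilising protein properdin, was higher by 1.87 (limma adjusted p = 0.00185). The difference of Cfp was 0.90 at 0 h, and its difference of changes from 0 h was 0.97, with neither called.

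Of the terminal pathway, whose products form the membrane attack complex, only C6 of 7 genes passed the filter, with 0 of 8 TERT-on arrays above it. C6 differed by 0.51 (limma adjusted p = 0.0398). The soluble regulators were divided. Clu, which encodes clusterin, was lower by 1.31 in TERT-off skin (log2 difference −1.31, limma adjusted p = 0.00711), and Vtn, which encodes vitronectin, differed by 0.52 (0.0572). Of the membrane regulators, Cr1l, which encodes the rodent convertase regulator Crry, was higher by 0.45 (limma adjusted p = 0.0298), and Cd59a, an inhibitor of the attack complex, differed by 0.29 (0.188).

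Among the receptors and binding proteins, Itgam, the alpha chain of complement receptor CR3, was higher by 1.95 (limma adjusted p = 0.00148), and Vsig4, a C3b receptor of tissue macrophages, by 1.62 (0.00816), although the highest of its TERT-on arrays was at 11.1 and 0 of 8 were above the filter. Itgb2, the shared beta chain, was higher by 0.61 (limma adjusted p = 0.0232). C1qbp, most of whose protein resides in mitochondria, was lower, with a difference of −0.32 (limma adjusted p = 0.0204). The differences of Itgax (0.68, limma adjusted p = 0.0917) and Cd93 (0.27, 0.327) missed the threshold.

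**Figure D3:**
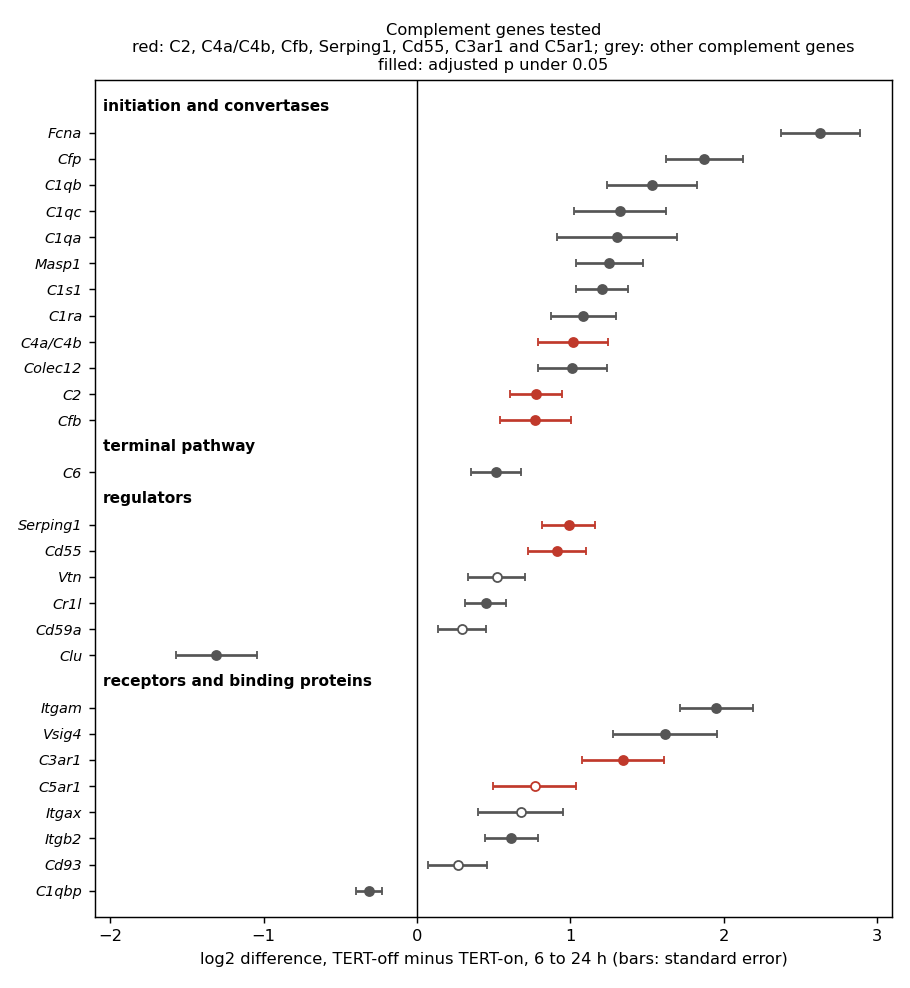
Log2 difference between TERT-off and TERT-on skin over 6 to 24 h with its standard error (bars) for all complement genes tested, grouped by role. Fcna has the largest difference (2.63), Clu (−1.31) and C1qbp (−0.32) are the only genes below 0, and the genes in red range between 0.77 and 1.34.

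Markers of several cell types also differed between the cohorts over 6 to 24 h, and their part in the results was not tested. Of the 10 genes of the macrophage list 9 were tested, and all 9 were higher in TERT-off skin over 6 to 24 h (limma), with a median of 1.44. Their summed intensity was 4854 to 11437 in TERT-off skin and 2617 to 5192 in TERT-on skin over these times. At 0 h it was 3534 to 6127 in TERT-off skin and 2305 to 3683 in TERT-on skin. None of the 9 lay under the intensity floor of 7.71 on any array. Across the 16 arrays the mean of this list had an r of 0.962 with C2 and of 0.808 with Cd55, the highest and lowest of the 7 probe sets.

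Fibroblast markers were higher for 7 of 8 genes, with a median of 0.69 and summed intensities of 20339 to 31043 in TERT-off skin and 13182 to 21430 in TERT-on skin over 6 to 24 h. Cd55 had an r of 0.893 with the Langerhans and dendritic cell list, 0.88 with the fibroblast list and 0.874 with the T cell list. Of other lists, 4 of 5 neutrophil genes (median 1.99), 6 of 8 mast cell genes (1.52, with Tpsab1 lower), 6 of 8 endothelial genes (0.59), 4 of 7 adipocyte genes (0.66), 4 of 8 skeletal muscle genes (0.62), 3 of 6 T cell genes (0.84) and 2 of 6 Langerhans and dendritic cell genes (0.53) were higher (limma). Of the genes in these lists, 2 neutrophil, 2 T cell, 1 mast cell, 1 endothelial and 1 Langerhans and dendritic cell gene passed the filter through the TERT-off arrays alone. At 0 h 0 genes were called, and median differences were 0.85 for mast cells, 0.47 for T cells and 0.33 for neutrophils. They were 0.20 for fibroblasts, 0.15 for Langerhans and dendritic cells, 0.0064 for endothelium, −0.065 for adipocytes and −0.62 for skeletal muscle. Median changes from 0 h in TERT-off skin were 0.098, 0.14, 1.45, 0.24, 0.24, 0.50, 0.062 and 0.34 in the same order. For basal keratinocytes, in which the transgene is driven, 2 of 8 genes were higher and the median was 0.23. All 10 hair shaft keratins tested were lower over 6 to 24 h, with a median of −4.96, and their median difference at 0 h was −1.67 with 0 called. Later TERT-off arrays spanned sums of 252 to 22579, as TERT-on arrays spanned 6350 to 29420.

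Interferon-stimulated genes and acute phase and NF-kB response genes were also examined, and their part in the results was not tested. Of 11 interferon-stimulated genes tested 6 were higher over 6 to 24 h (limma, median 0.83). Their summed intensity was 1189 to 2813 in TERT-off skin and 1005 to 1909 in TERT-on skin, so that the ranges overlapped. Ifit1 and Mx1 passed the filter through the TERT-off arrays alone, and of the other 9 genes 5 were higher (median 0.81). Of 12 acute phase and NF-kB response genes 10 were higher (median 0.98). Il6 passed the filter through the TERT-off arrays alone, and of the other 11 genes in this list 10 were higher (median 0.99). This list differed most at the end of the course, with 1, 3 and 7 genes higher at 6, 12 and 24 h and medians of 0.08, 0.81 and 1.65. The medians of the complement genes at these times were 0.80, 0.92 and 1.02.

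**Figure D4:**
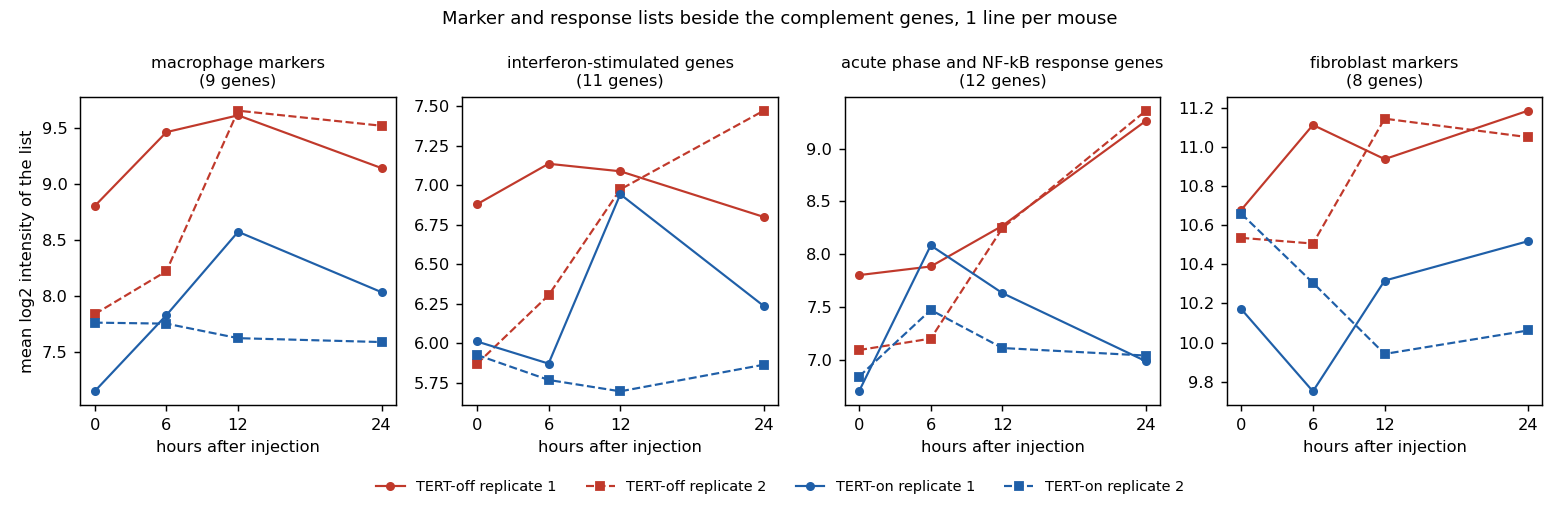
Mean log2 intensity of 4 gene lists against hours after injection (0 is before injection), with 1 line per mouse and 1 point per array. At 0 h the macrophage list is at 8.81 and 7.84 in TERT-off skin and at 7.15 and 7.77 in TERT-on skin, and TERT-on replicate 1 reaches 6.94 at 12 h for the interferon-stimulated genes, close to the TERT-off arrays of that time.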

How the data were processed

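Per the labels and the study's methods, total RNA was amplified, biotin-labelled and hybridised to Affymetrix Mouse Genome arrays. The authors normalized the arrays in dChip (invariant set) and deposited linear intensity values, one for each probe set, from a model of perfect-match minus mismatch signal. Probe sets were named from the platform annotation, whose symbols were updated by gene ID, and 932 probe sets listed to several genes named none.

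Values below the 20th percentile (7.71) were raised to it (0.298% of the values tested) before the log2 transformation. Testing was limited to probe sets above the table median (34.4) on at least 2 arrays (25563 probe sets, 12580 genes). A single limma fit (version 3.58.1, R 4.3.3, statmod 1.5.0) estimated 8 group means with random mouse effects (consensus correlation 0.0728) and eBayes with a trend. All tests were two-sided. P-values were adjusted by the Benjamini-Hochberg method over all probe sets, with a threshold of 0.05. The fit was tested on simulated data. Other complement genes were named by rule: up to 4 called genes per list with the largest difference and up to 2 uncalled with the highest mean. The alternatives covered the floor, filter, normalization, blocks, moderation, mice, arrays, times and probe sets. The genes, lists and tests were chosen with earlier results of these data known. The study's methods name SAM, which was not used here. Arrays of a cohort that carried the same number were treated as coming from 1 mouse. P-values measure the spread among these arrays, which are serial biopsies of 2 mice per cohort. With a consensus correlation of 0.0728 the fit treats the arrays of a mouse as nearly independent. The number of mice thus limits what can be concluded about mice in general. Figures were drawn with matplotlib 3.10.9.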

Additional observations from a re-analysis of the deposited data

Results flagged for a closer look

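In 14 sets of 6 arrays (7 probe sets, 2 cohorts, 6 to 24 h), each lowest or highest array was compared with its neighbours by Dixon's criterion, under which chance alone marks about 1 set in 20. The array of TERT-off replicate 2 at 6 h was far below the other TERT-off arrays for Serping1 (1390), Cfb (109) and C5ar1 (25.3). These 3 values come from 1 biopsy and are not independent. In the TERT-on cohort the array of replicate 1 at 12 h was far above the others for C3ar1 (61.7).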

How the results depend on the processing

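The number of genes higher in TERT-off skin over 6 to 24 h was 5 of 6, and it was 4 to 6 under the other floors, filter, normalizations, blocks, moderation and times. Leaving out 1 mouse gave 0 to 6 of 6, with 0 when TERT-on replicate 2 was left out and 2 when TERT-on replicate 1 was. In these fits an arm holds 1 mouse, and the share of all genes called in them is not given here. Of 119 single-gene values over 6 to 24 h under the alternatives, 99 kept their direction and side of the threshold, 14 lost their call, 6 gained one, and none changed sign. Arrays of the same number in different cohorts come from different mice, and their deviations correlated at −0.13 to 0.10, so the number does not pair the cohorts. Within a cohort, arrays of the same number correlated at 0.12 to 0.64 in TERT-off skin and −0.15 to 0.32 in TERT-on skin. The TERT-on values do not establish that arrays of 1 number came from 1 mouse. With the replicate number as a block, 6 of 6 genes passed over 6 to 24 h, 1 at 12 h (Serping1) and 1 at 24 h (C3ar1), where 0 had passed at either time. Without the share of all genes called with this block, these counts are not read as particular to the complement genes. At 6 h, leaving out the array of TERT-off replicate 2 leaves 1 TERT-off array, and only the differences given above are drawn from that fit. This alternative, the one without the 12 h array of TERT-on replicate 1 and the one without 6 h were chosen after seeing the data. For the other comparisons 0 genes passed throughout.

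The values that changed sign were all uncalled, and the cause was not tested. With each mouse left out in turn, the 0 h difference ran from −0.020 to 0.52 for Cfb and from −0.07 to 0.38 for C4a/C4b, whose value was −0.12 without only the 0 h array of TERT-on replicate 1. The 6 h difference of C5ar1 ran from −0.22 to 1.07 and its difference of changes from −0.32 to 0.65. The change in TERT-on skin ran from −0.085 to 0.29 for Serping1, from −0.041 to 0.32 for C2, from −0.12 to 0.79 for C4a/C4b and from −0.64 to 0.032 for Cd55, and the change of Cd55 in TERT-off skin from −0.0080 to 0.29. Other probe sets gave 0 h differences of −0.15 for C5ar1, −0.079 and −0.0098 for C2 and −0.062 for Cd55, changes in TERT-on skin of −0.029 and −0.027 for C2, and changes in TERT-off skin of −0.11 and −0.46 for Cd55. C5ar1 and C3ar1, the dimmest genes, lie closest to the floor.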
